A study of Mus musculus with 4 samples.

Results

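The genes described here encode the Kv4 potassium channel complex, and comprise 9 of the 34682 gene symbols in the count table. They are the 3 Kv4 channels Kcnd1, Kcnd2 and Kcnd3, the 4 Kv channel interacting proteins (KChIPs) Kcnip1, Kcnip2, Kcnip3 and Kcnip4, and the 2 dipeptidyl-peptidase-like proteins Dpp6 and Dpp10. The family was chosen by the fall of Kcnd2 in the mutant ovaries, and the remaining genes were added as its known partners. The mutant against wild-type values of all 9 genes are therefore given as a description, and the adjusted p-values printed for them describe the fit and are not evidence on the family.

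RNA was sequenced from whole developing mouse ovaries at E13.5 (days of embryonic development), with 2 Sall1-overexpressing mutant libraries and 2 wild-type libraries. The mutants carried a BAC, a large genomic insert cloned in bacteria, in which the regulatory elements of Wt1 drive the Sall1 coding sequence in somatic gonadal cells. This transgene was inserted by piggyBac into female embryonic stem cells, from which the animals were made by morula aggregation. The paper describes the female ES cell line as derived from C57BL/6J blastocysts. Its general statement on transgenic experiments names C57BL/6J or C57BL/6J-129 hybrid ES cells. The controls are labelled wild type, and their strain is uncertain, since the methods name CD1 mice, the results name littermates and the column headers of the controls contain B6. How many ES cell clones, integration sites or embryos stand behind each library is not given in the sources used here, so p-values measure only the spread between these libraries.

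Kv4 proteins form the pore of a voltage-gated potassium channel that opens at subthreshold voltages and inactivates fast, giving the A-type current of neurons and the transient outward current of heart muscle. KChIPs are calcium-binding proteins that bind the N terminus of the channel and promote its transport to the cell surface. DPP6 and DPP10 span the membrane, have lost peptidase activity and speed up the gating of the channel. The complex is known mainly from excitable cells, and its genes are described here in a fetal gonad.

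The target gene checked the labels. Levels are given as CPM, the count scaled to a common library size with TMM factors, which correct for composition. Sall1 stood at 104 ± 11.8 CPM (SD, n = 2) in mutants and at 14.4 ± 2.53 CPM (SD, n = 2) in controls. Library totals lay between 11036313 and 17869840 counts, the mutant libraries being the shallower ones, and 3 counts, taken as the floor for detection, correspond to 0.17 to 0.272 CPM. All 9 genes passed the filter for low counts, and each reached the filter minimum of 0.623 CPM in all 4 libraries, so that none was tested only because of the group in which it was high.

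The promoters of Kcnd2 and Kcnip1 are shown because these genes had the largest differences between the groups. Each window runs from 250 bases before to 50 bases after a RefSeq transcript start, with coordinates on GRCm38.p6, a later build than the mm9 build named for the counts. Kcnip1 has 3 starts in this table and the 2 that lie farthest upstream are printed. The counts per gene do not tell which start was used. Sequences are written 5′ to 3′ in lower case, with GC boxes in capitals.
Kcnd2 start (chr6:21215096-21215395, plus strand): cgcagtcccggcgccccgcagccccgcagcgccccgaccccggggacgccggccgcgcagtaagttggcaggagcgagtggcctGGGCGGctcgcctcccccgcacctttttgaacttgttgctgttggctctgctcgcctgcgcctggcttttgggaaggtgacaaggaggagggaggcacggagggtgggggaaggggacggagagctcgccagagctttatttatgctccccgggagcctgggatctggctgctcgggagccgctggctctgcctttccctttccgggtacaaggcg
Kcnip1 start 1 (chr11:33993144-33993443, minus strand): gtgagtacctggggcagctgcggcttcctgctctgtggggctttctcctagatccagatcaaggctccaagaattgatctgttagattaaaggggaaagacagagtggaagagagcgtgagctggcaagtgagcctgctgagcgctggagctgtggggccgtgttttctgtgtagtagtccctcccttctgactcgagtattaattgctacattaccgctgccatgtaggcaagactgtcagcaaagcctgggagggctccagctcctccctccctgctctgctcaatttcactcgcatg
Kcnip1 start 2 (chr11:33843637-33843936, minus strand): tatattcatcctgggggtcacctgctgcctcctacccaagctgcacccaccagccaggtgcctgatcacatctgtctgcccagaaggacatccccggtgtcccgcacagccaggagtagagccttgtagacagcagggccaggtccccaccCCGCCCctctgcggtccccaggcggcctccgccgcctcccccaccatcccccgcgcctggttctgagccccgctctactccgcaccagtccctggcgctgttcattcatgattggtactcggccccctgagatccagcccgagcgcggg

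The search covered 4 motifs on both strands, namely GGGCGG (the GC box), TATAAA (the TATA box), AATATT (an AT-rich word of the kind bound by SALL family proteins) and GCGNGGGCG (a word shared by EGR proteins and WT1). The Kcnd2 window held 1 GC box and the second Kcnip1 window also held 1, a word found in 35.7% of all 32851 windows of this length. Neither TATAAA, found in 13.6% of all windows, nor AATATT, found in 6.81%, nor GCGNGGGCG, found in 5.55%, was present in the windows of these 2 genes. The windows differed in base composition. The Kcnd2 window had 68.7% GC with 26 CG dinucleotides, and the printed Kcnip1 windows had 54.3% GC with 7 and 66.7% GC with 16. The Kcnip1 window not printed had 45.3% GC with 4 CG dinucleotides. The median GC content over all windows was 52.7%. Of the 9 genes, 8 had a window in the table.

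Most of these genes span long genomic regions. By GENCODE M1, on NCBIM37 (mm9), Kcnd2 occupies the plus strand of chromosome 6 from 21165503 to 21679805, a span of 514.3 kb with 6 exons. Kcnip1 is on chromosome 11, minus strand, from 33529339 to 33893152, with 8 merged exons over 363.8 kb. Kcnip4 spans 1135.2 kb, Dpp6 910.3 kb and Dpp10 713.4 kb, whereas Kcnd1 on chromosome X covers 16 kb. Kcnmb1, a subunit of calcium-activated potassium channels, lies on the opposite strand within Kcnip1 and shares 0 exon bases with it. Exons of Kcnd3 share 165 bases with the opposite-strand transcript 1700095B22Rik, and those of Dpp10 share 320 bases with Gm10543. The handling of strands in the counting is not given in the sources used here, so these 2 genes are less certain.

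Kcnd2 RNA was 3.9-fold less abundant in the mutant ovaries than in the controls. Kcnip1 followed the same direction, and the other channels and subunits differed much less. Kcnd2 encodes the pore subunit best known from the dendrites of hippocampal neurons. Its reads numbered 82 and 116 in mutant and 542 and 490 in wild-type libraries, or 7.44 and 7.71 CPM against 31.5 and 27.8 CPM. The lowest wild-type value was far above the highest mutant value, and the mutant libraries differed from each other by a ratio of 1.04, within counting error, while the wild-type libraries differed by a ratio of 0.881 (95% interval 0.778 to 0.998), just beyond it. The fitted log2 fold change was -1.97 (standard error 0.15), and the 95% interval of the 3.9-fold difference ran from 3.04 to 5.02.

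Kcnd1 and Kcnd3 did not share this fall. Kcnd1, an X-linked Kv4 gene, had 10.9 and 11.2 CPM in mutant and 10.8 and 10 CPM in wild-type ovaries, with a log2 fold change of 0.09 (95% interval -0.33 to 0.5). The groups were separated only by a small margin, and the interval leaves out a fall of the size seen in Kcnd2. Kcnd3, the Kv4 channel of the human heart, had 5.99 and 5.85 CPM in mutant libraries and 5.23 and 8.84 CPM in wild-type libraries. The mutant values lay between those of the wild-type libraries, which themselves differed 1.69-fold, beyond counting error (95% interval 1.3 to 2.22). Its log2 fold change of -0.25 (standard error 0.3) became 0.19 without wild-type replicate 2, so no direction can be given for Kcnd3.

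**Figure D1:**
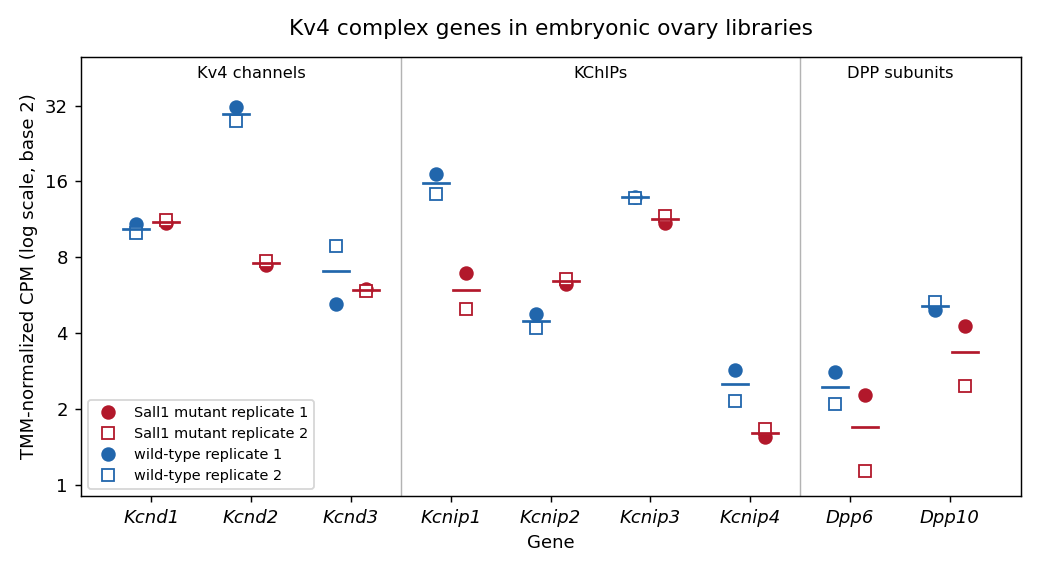
TMM-normalized CPM (y axis, log scale of base 2) of the 9 genes (x axis) in each library, with wild-type in blue and Sall1 mutant in red, circles for replicate 1, open squares for replicate 2 and bars for group means. Kcnd2 falls from 31.5 and 27.8 CPM in wild-type to 7.44 and 7.71 CPM in mutant libraries, and Kcnip1 is the other gene with a wide gap between the groups.

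Among the KChIPs, Kcnip1 was the gene with the largest difference. It encodes KChIP1, a KChIP typical of inhibitory neurons. It had 76 and 75 counts in mutant libraries against 296 and 253 in wild-type libraries, which is 6.9 and 4.98 CPM against 17.2 and 14.3 CPM. The highest mutant value lay far below the lowest wild-type value, so the groups did not overlap. The log2 fold change was -1.42 (standard error 0.23), or 2.67-fold lower in the mutant with a 95% interval from 1.84 to 3.88.

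The other KChIPs had smaller differences, in both directions. Kcnip2, which encodes the KChIP of heart muscle, was measured at 6.26 and 6.58 CPM in mutant and 4.77 and 4.19 CPM in wild-type ovaries, a log2 fold change of 0.52 (95% interval -0.06 to 1.1). It is the member with the most positive difference, and both mutant libraries were above both wild-type libraries. Kcnip3, whose product is also known as DREAM or calsenilin and acts as a calcium-dependent transcriptional repressor, had 10.9 and 11.7 CPM in mutant and 13.9 and 13.8 CPM in wild-type libraries. The mutant values were lower without overlap, but by a log2 fold change of only -0.29 (95% interval -0.68 to 0.09). Kcnip4, a KChIP with an isoform that slows inactivation of the channel, rested on 17 and 25 mutant counts against 49 and 38 wild-type counts. Its log2 fold change of -0.64 had a 95% interval from -1.49 to 0.22, and at this depth a change of either sign of modest size was not detectable.

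Of the DPP subunits, neither was clearly different between the groups. Dpp10 had 4.26 and 2.46 CPM in mutant libraries against 4.94 and 5.33 CPM in wild-type libraries, with a log2 fold change of -0.62 (95% interval -1.43 to 0.18). Both mutant libraries were lower, but they differed from each other by more than counting error, with a ratio of replicate 2 to replicate 1 of 0.577 (95% interval 0.364 to 0.906). Dpp6 had 25 and 17 counts in mutant and 48 and 37 counts in wild-type libraries, and its log2 fold change was -0.55 (95% interval -1.6 to 0.51). Its groups overlapped, with 2.27 CPM in mutant replicate 1 and 2.1 CPM in wild-type replicate 2. Without mutant replicate 2, which had the lowest Dpp6 and Dpp10 levels, the log2 fold changes were -0.11 for Dpp6 and -0.27 for Dpp10, and without mutant replicate 1 they were -1.11 and -1.06. Over the 9 genes, the replicates of a group differed beyond counting error in 5 of 18 comparisons, and these intervals cover counting error only. The share of such comparisons over all genes was not computed. Over all genes with a count, chi-square per degree of freedom was 9.4 between mutant and 10.7 between wild-type libraries. Spread beyond counting error was therefore not particular to these genes.

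**Figure D2:**
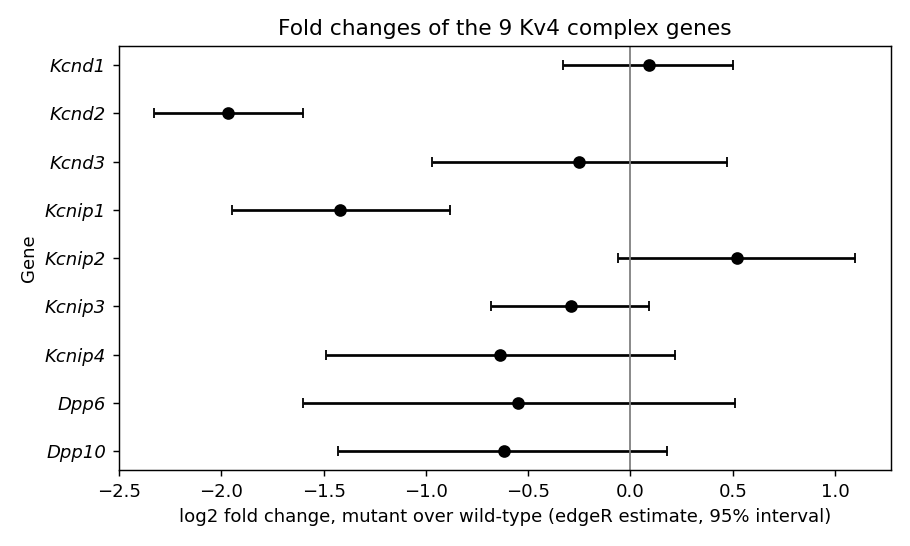
Fitted log2 fold change of mutant over wild-type (x axis) for each of the 9 genes (y axis), with points for the edgeR estimate and bars for its 95% interval. The intervals of Kcnd2 (-2.33 to -1.6) and Kcnip1 (-1.95 to -0.88) leave out 0, and those of the other genes include it.

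Across the 9 genes, 7 had a negative and 2 a positive log2 fold change, with a median of -0.55 against a median of -0.00088 over the 15442 genes tested. Both mutant libraries lay below both wild-type libraries in 5 of the 9 genes, where this holds for 15.1% of all genes tested, and above them in 2, where it holds for 15.8%. For single genes, the two-sided exact permutation p cannot fall below 0.333 with 2 libraries per group, so calls rest on a model that shares the spread across genes. With edgeR (quasi-likelihood, Benjamini-Hochberg adjusted p), 1 of the 9 genes was called lower, Kcnd2, beside 0.0453% of all genes tested, and 0 were called higher, beside 0.013%. At an unadjusted p under 0.05, which 5.69% of all genes reached, Kcnd2 and Kcnip1 passed. DESeq2 called the same 2 genes lower, beside 0.416% of the genes it tested, and 0 higher, beside 0.278%. These shares are given for scale, since the family was chosen from this comparison.

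The call of Kcnip1 depended on the test. Its adjusted p was 0.157 in edgeR's quasi-likelihood test and 0.00253 with DESeq2, and over the alternatives of this comparison it ranged from 0.000476 to 0.649, while the log2 fold change ranged from -1.66 to -1.19. The 7 genes other than Kcnd2 and Kcnip1 had adjusted p-values of 0.949 or more in edgeR's test. For Kcnd2 the log2 fold change ranged from -2.04 to -1.87 with each library left out. That gene had an adjusted p (edgeR) of 0.0774 without wild-type replicate 1 and 0.102 without wild-type replicate 2, so the call, though not the size of the difference, needed both wild-type libraries. The call of Kcnip1 changed without mutant replicate 1, where its adjusted p was 0.00678.

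Per kilobase of merged exons, a scale on which genes can be compared, Kcnd2 was the most abundant of the 9 genes in the wild-type ovary. Its level was 5.75 ± 0.513 CPM per kb (SD, n = 2), followed by Kcnip3 at 3.91 ± 0.0358, Kcnip1 at 2.54 ± 0.327, Kcnd1 at 1.97 ± 0.0967 and Kcnip2 at 1.29 ± 0.117 CPM per kb. Neighbours in this part of the order did not overlap between libraries. Dpp10 at 1.05 ± 0.0557 CPM per kb overlapped with Kcnip4 at 0.942 ± 0.185, and Kcnip4 with Kcnd3 at 0.734 ± 0.266 CPM per kb. Dpp6 was lowest at 0.244 ± 0.0489 CPM per kb, below both wild-type values of Kcnd3. With the longest transcript as gene length, the wild-type mean was 3.85 CPM per kb for Kcnip1 and 0.518 CPM per kb for Dpp6. Kcnd2 remained first at 5.75 CPM per kb, but Kcnip3 came closer to it, at 5.07 CPM per kb. In the mutant ovary the order was led by Kcnip3 at 3.18 ± 0.162 and Kcnd1 at 2.09 ± 0.0373 CPM per kb. Kcnd2 ranked 4 there, at 1.47 ± 0.0371 CPM per kb, and Kcnip1 ranked 5, at 0.958 ± 0.218 CPM per kb.

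The make-up of the channel class therefore differed between the genotypes. Kcnd2 made up 70.3% and 65.7% of the summed Kv4 level per kilobase in wild-type libraries and 35% and 35.5% in mutant libraries. Kcnd1 made up 23.4% and 23.1% in wild-type and 49.9% and 50.1% in mutant libraries, with its own level at 1.97 ± 0.0967 and 2.09 ± 0.0373 CPM per kb. The summed Kv4 level was 8.45 ± 0.343 CPM per kb (SD, n = 2) in wild-type and 4.17 ± 0.0641 CPM per kb in mutant ovaries, whereas Kcnd1 and Kcnd3 together had 2.7 ± 0.17 and 2.7 ± 0.027 CPM per kb. The drop of the summed level thus lay in Kcnd2.

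A similar description holds for the KChIPs on a smaller scale. Their summed level was 8.68 ± 0.664 CPM per kb (SD, n = 2) in wild-type and 6.59 ± 0.0405 CPM per kb in mutant ovaries, and without Kcnip1 it was 6.14 ± 0.337 and 5.64 ± 0.258 CPM per kb. Kcnip1 made up 30.3% and 28.2% of the class in wild-type libraries and 16.9% and 12.1% in mutant libraries, while Kcnip2 made up 15% and 14.7% and then 27.4% and 28.6%. The ratio of summed KChIP to summed Kv4 level was 1.05 and 1 in wild-type and 1.59 and 1.57 in mutant libraries. With the longest transcript as gene length it was 1.38 and 1.28 against 1.94 and 1.9. The ratio itself thus depends on the lengths used but was higher in the mutant libraries on both. Kcnd2, by whose fall the family was chosen, made up 68% of the wild-type Kv4 sum on average. The higher ratio therefore largely restates that fall, since the summed KChIP level was itself lower in the mutant ovaries. Dpp10 made up 78.4% to 83.9% of the DPP class in the 4 libraries, or 64.4% to 72.1% with the longest transcript, and the summed DPP level was 1.29 ± 0.0068 CPM per kb in wild-type and 0.855 ± 0.34 CPM per kb in mutant ovaries.

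**Figure D3:**
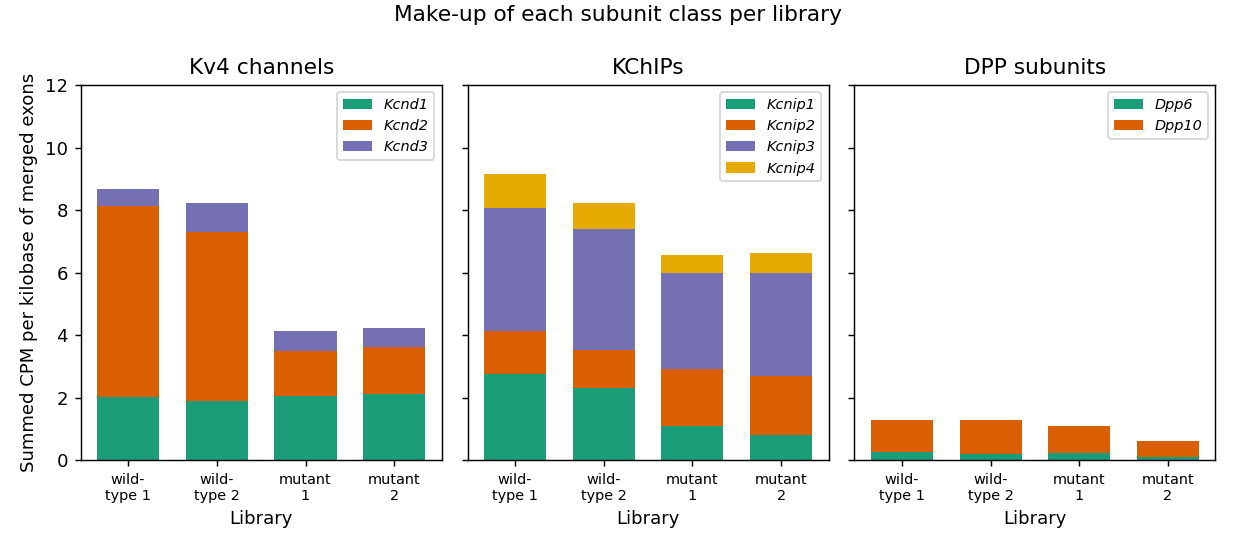
CPM per kilobase of merged exons (y axis) stacked by gene within the Kv4 channels, the KChIPs and the DPP subunits, for each library (x axis), with 1 bar per library and no error bars. The Kcnd2 part of the Kv4 bars shrinks in the mutant libraries while Kcnd1 and Kcnd3 together keep a mean of 2.7 CPM per kb.

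In their pattern over the 4 libraries, Kcnd2 and Kcnip1 were close to each other. Likeness was measured as the Euclidean distance between log2 CPM values (prior count 2), each gene centred on its own mean, over 4 libraries that share the difference between genotypes, and it is a description. Of the 15441 other genes tested, the nearest to Kcnd2 was Rgs2, a regulator of G protein signalling, at a distance of 0.335, with 19.5 and 19.6 CPM in mutant and 76.8 and 91.1 CPM in wild-type libraries. Bmp5, a BMP ligand, was at 0.384, Lhfpl1 at 0.458, Dach1, a transcriptional cofactor, at 0.5 and Hpgd, the enzyme that inactivates prostaglandins, at 0.522. Lhfpl1 lay at or under the floor of 3 counts in the mutant libraries, so its pattern is uncertain. Kcnip1 ranked 17 of the 15441, at 0.656. Kcnip4 ranked 311 at a distance of 1.36, Dpp10 445 at 1.44, Dpp6 717 at 1.56 and Kcnip3 1097 at 1.66. The other Kv4 channels lay farther away, Kcnd3 at 1.87 (rank 3757) and Kcnd1 at 2.03 (rank 10070). Kcnip2 ranked 14461, at 2.46. In distance, Kcnip4, Dpp10, Dpp6 and Kcnip3 were thus nearer to Kcnd3 than to Kcnip1, despite their low ranks.

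**Figure D4:**
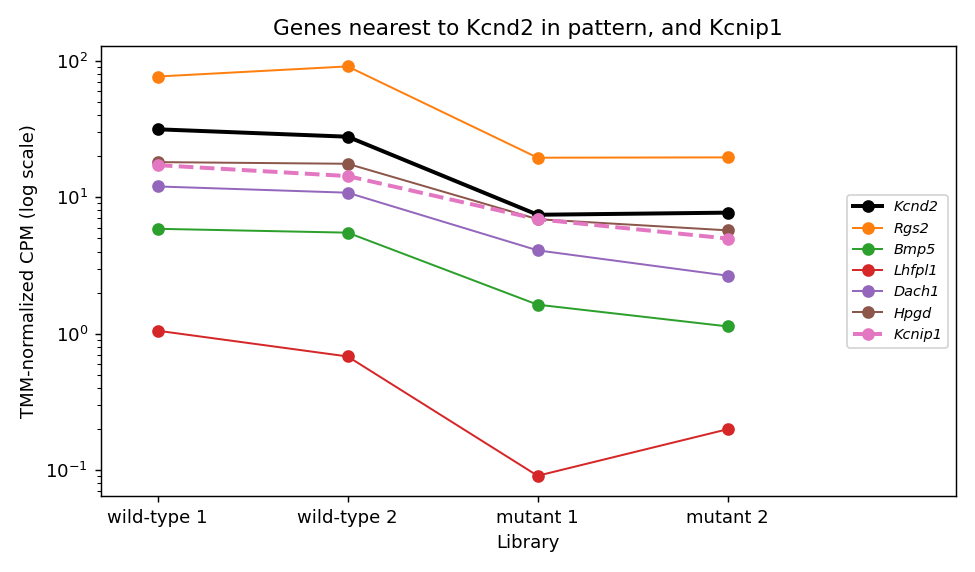
TMM-normalized CPM (y axis, log scale) in the 4 libraries (x axis) for Kcnd2 in black, the 5 genes nearest to it in pattern and Kcnip1 as a dashed line, where lines only join the values of a gene. All 7 genes are lower in both mutant libraries than in both wild-type libraries, from 17.2 and 14.3 to 6.9 and 4.98 CPM in the case of Kcnip1.

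The nearest tested genes on both sides of Kcnd2 on chromosome 6 had no difference of this size. Tspan12, a tetraspanin that starts 41.6 kb beyond the end of Kcnd2, had 28.3 and 25.1 CPM in mutant and 24.7 and 27.9 CPM in wild-type libraries, a log2 fold change of 0.02 (standard error 0.14). Ing3, a chromatin reader 219.8 kb away and named after its values were seen, was lower in both mutant libraries, at 26.7 and 27.5 against 28.2 and 33.4 CPM (log2 fold change -0.18, standard error 0.13). On the other side the nearest tested gene matched by symbol was Cttnbp2, 2700.2 kb away, and its log2 fold change was 0.47 with a standard error of 0.18 (edgeR adjusted p = 0.806).

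Related channel and family genes gave 0 calls with DESeq2 or in edgeR's test of genotype alone. Of 37 other Kv alpha subunits, 24 were tested, and the median log2 fold change was -0.035. An unadjusted p under 0.05, reached by 5.69% of all genes tested, was found for 2, a count too small to read against that share. These 2 were Kcnf1, a silent subunit that modifies other Kv channels, with 10.5 and 9.77 CPM in mutant and 6.45 and 4.02 CPM in wild-type libraries (adjusted p = 0.556), and Kcnh1, an ether-a-go-go channel, with 41 and 55.3 against 27.5 and 35.8 CPM (adjusted p = 0.627). Kcnh1 passed the adjusted threshold in the fit without mutant replicate 1. Both had higher values in the mutant libraries, opposite in sign to Kcnd2.

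Of 8 other Kv auxiliary subunits, 6 were tested and 0 reached an unadjusted p under 0.05. The 2 with the smallest p were Kcne4, an inhibitory single-pass subunit, and Kcnab3, a cytoplasmic beta subunit, with log2 fold changes of 0.47 and 0.35. Among 9 neuronal calcium sensors, the family to which KChIPs belong, 7 were tested, with a median log2 fold change of -0.21. Of these, 1 reached an unadjusted p under 0.05, beside 5.69% of all genes tested. That gene was Vsnl1, visinin-like protein, at 4.63 and 3.86 CPM in mutant against 6.16 and 6.97 CPM in wild-type libraries (adjusted p = 0.85). Ncs1, a calcium sensor that can also bind Kv4 channels, had a log2 fold change of -0.25 (standard error 0.13). All 8 genes of the catalytic dipeptidyl peptidase and prolyl peptidase list were tested, and 0 had an unadjusted p under 0.05. Dpp4, the best known peptidase of this family, had a log2 fold change of 0.44 and Dpp7 one of 0.12.

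Because the libraries are from whole ovaries, fewer cells of a type and less RNA per cell cannot be told apart, and marker genes of the cell types were therefore summed. Markers of the ovary were present, as the 7 pre-granulosa markers summed to 620 to 625 CPM in mutant and 581 to 607 CPM in wild-type libraries, and the 7 germ cell markers to 1510 to 1760 and 1570 to 1710 CPM. The 6 interstitial markers were lower in the mutant, at 373 to 446 against 520 to 563 CPM, and both mutant libraries lay below both wild-type libraries for 5 of the 6, against 15.1% of all genes tested. The sixth, Ptch1, a receptor and target of Hedgehog signalling, lay above them with 96.4 and 106 against 85.6 and 85.3 CPM, a direction that holds for 15.8% of all genes. Among the 5, Tcf21, a stromal transcription factor, had a log2 fold change of -1.1 and Pdgfra, a growth factor receptor of stromal cells, one of -0.55, each called lower by DESeq2 but not by edgeR. The 12 neuron and glia markers, of interest because the Kv4 complex is known from neurons, summed to 24.4 to 29.7 against 32.6 to 45 CPM, with Dbh and Sox10 among the markers at 0 counts in at least 1 library. The 6 endothelial markers summed to 391 to 417 against 433 to 441 CPM. Of these, Kdr had 95.1 and 90.5 CPM in mutant and 129 and 126 CPM in wild-type libraries (log2 fold change -0.46). Cldn5 had a log2 fold change of -0.35, whereas Pecam1, Cdh5, Tek and Emcn had 0.01, 0.03, -0.02 and 0.01. The lower sum therefore does not describe the list as a whole. Both mutant libraries were below both wild-type libraries for 2 of 8 tested neuron and glia markers and 2 of 6 endothelial markers, against the same 15.1% of all genes, counts too small to read against that share. In edgeR's test 0 markers of any of these lists were called. An unadjusted p under 0.05, reached by 5.69% of all genes, was found for 3 pre-granulosa markers (1 lower, 2 higher), 0 germ cell markers, 4 interstitial markers (3 lower, 1 higher), 2 neuron and glia markers (both lower) and 1 endothelial marker (lower). The pre-granulosa markers were Bmp2, a BMP ligand, at 25 and 21.9 against 42.7 and 38.5 CPM and called lower by DESeq2, and Foxl2 and Irx3, transcription factors of pre-granulosa cells, at 46.3 and 44.1 against 28 and 32 CPM and at 79.2 and 78.2 against 62.5 and 61.9 CPM. The part of these cell types in the levels of Kcnd2 and Kcnip1 was not tested.

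Some libraries differed in muscle RNA. The 12 muscle markers summed to 76.5 to 148 CPM in mutant and 96 to 323 CPM in wild-type libraries, and replicate 1 was the higher library in both genotypes. Myh3, the embryonic myosin heavy chain of skeletal muscle, had 5.26 and 1.4 CPM in mutant and 91.7 and 1.36 CPM in wild-type replicates 1 and 2. Actc1, a sarcomeric actin, had 12.9 and 0.997 CPM in mutant and 61.3 and 2.78 CPM in wild-type replicates 1 and 2. Without wild-type replicate 1 the log2 fold change of Kcnd2 was -1.87 (edgeR adjusted p = 0.0774) and that of Kcnip1 was -1.28 (edgeR adjusted p = 0.649). The part of muscle RNA in these levels was not tested. The 7 mesonephric duct and tubule markers summed to 37.2 to 51.7 CPM in mutant and 37.5 to 41.6 CPM in wild-type libraries, and these ranges overlapped. Single markers went in both directions. Of 6 tested, 1 had an unadjusted p under 0.05 in edgeR's test, a level reached by 5.69% of all genes. This was Pax8, higher in the mutant libraries at 13.9 and 17.7 against 9.07 and 9.07 CPM (adjusted p = 0.372). Ret was lower, at 8.71 and 14.3 against 15.2 and 17.8 CPM.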

How the data were processed

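The deposited values are counts of reads per gene symbol for 4 libraries. The authors aligned the reads with STAR 2.6.1d, per the labels to mm9, and counted them with the R function summarizeOverlaps. The paper also describes a normalization to RPKM, which was not used here. The annotation, and whether ovaries were pooled, are not given in the sources used here. A total of 0 value columns were left unused.

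Counts were analysed in R 4.3.3 with edgeR 4.0.16, using TMM factors, the filterByExpr filter (15442 genes kept), one quasi-likelihood fit of genotype over all libraries and Benjamini-Hochberg adjustment over all genes tested (threshold 0.05). Each standard error is the absolute log2 fold change over the square root of F. DESeq2 (version 1.42.0 here; the authors also used DESeq2), other normalizations and filters, a block for replicate number, and fits without each library were alternatives; there the lone library of a group is assumed to vary like the other group. The edgeR and DESeq2 fits of genotype were tested on simulated data, drawn as independent libraries with the same dispersion for all genes. That test does not cover deviations shared by libraries of the same replicate number. Replicate ratios have exact binomial (Clopper-Pearson) intervals at 95%, covering counting error only. Levels per kilobase used merged exons of GENCODE M1 (NCBIM37, mm9).

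The members and gene lists were chosen with earlier results of these data known. Genes named outside the 9 are Sall1 and the called genes or else the 2 with the smallest p in each related list. The nearest tested genes beside Kcnd2 and the 5 nearest to it in pattern are also named. Ing3 and the markers named were chosen after their values were seen. These markers are Tcf21, Pdgfra, Ptch1, Myh3, Actc1, Dbh, Sox10, Bmp2, Foxl2, Irx3, Kdr, Cldn5, Pecam1, Cdh5, Tek, Emcn, Pax8 and Ret. Promoter sequences are from RefSeq on GRCm38.p6.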

Additional observations from a re-analysis of the deposited data

How the results depend on the processing

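The number of the 9 genes called, 1 (Kcnd2), became 2 with DESeq2 and 2 with the replicate block, in both cases by the addition of Kcnip1, and ranged from 0 to 2 with each library left out. Over all genes, the 9 calls became 105 with DESeq2, 28 with no filter, 19 with at least 10 counts in every library and 385 with the replicate block, and ranged from 2 to 155 with each library left out. The 0 calls among related channel and family genes became 3 with the replicate block (Kcnf1, Kcng4 and Kcnh1, all higher) and ranged from 0 to 1 with each library left out. Libraries of the same replicate number deviated together across genes (correlation 0.481 over 2 pairs), and the library numbers in the column headers run consecutively within a replicate number, but the labels do not say that a number marks a shared litter or batch. The direction of the 9 fold changes was kept in 89 of 90 alternative values, the exception being Kcnd3 without wild-type replicate 2 (0.19, in a range from -0.58 to 0.19). Kcnd2 was first in level per kilobase in the wild-type ovary under every choice of length and scaling tried. The cause of these changes was not tested. Depth limits Kcnip4 and Dpp6 most, with 17 to 49 counts per library.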
